A study of Mus musculus with 8 samples.

Results

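PM2.5, fine airborne particulate matter, changed a group of genes in the same direction in spheroids of both EpH4 and EpH4-AS, a pair of mouse cell lines that the labels give as mammary epithelial. Heme oxygenase, the cystine importer and the enzymes of glutathione synthesis rose in both lines. So did several NF-kB feedback inhibitors, the chemokines Cxcl1, Cxcl3 and Ccl2, and mitochondrially encoded transcripts, while the transferrin receptor fell. These genes were found from all 8 libraries of the study, 2 in each of 4 groups. The groups were EpH4 untreated, EpH4 with PM2.5, EpH4-AS untreated and EpH4-AS with PM2.5. By their labels EpH4 is wildtype and EpH4-AS a malignantly transformed counterpart. Each is a single cell line. All groups were grown as spheroids, which are rounded cell aggregates, and polyadenylated RNA was sequenced in 1 batch. The dose of PM2.5 and the length of exposure are not given in the labels used here. Nothing in the labels ties the 2 libraries of a group to separate cultures. The p-values below thus measure only how far these libraries spread around the fitted model, and the spread within a group may be technical.

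The genes were chosen in 2 ways. An additive model had a term for the line and a term for PM2.5. It compared the 4 exposed with the 4 untreated libraries and gave 1 log2 fold change per gene, called the additive term below. The spread in this model holds any difference of the PM2.5 effect between the lines as well as that between replicates. The standard errors and p-values of the additive term thus also reflect how far the lines differ. A model of the 4 groups estimated the change with PM2.5 separately for each line, from libraries that the lines do not share, although the estimates of spread and of library scaling were made over all 8. A gene is called shared where the adjusted p was at or under 0.05 in each line and the direction was the same. Levels are given as CPM, the count scaled to the library's total and by TMM between libraries, for replicate 1 and then replicate 2. Log2 fold changes carry a standard error from the test. Adjusted p-values are from edgeR's quasi-likelihood test with Benjamini-Hochberg adjustment over all genes tested.

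Fine particles carry metals and organic compounds, and cells are known to meet these with several defence systems. NRF2, a transcription factor held back by KEAP1 until electrophiles or oxidants modify it, switches on genes of glutathione and thioredoxin metabolism, NADPH supply and heme breakdown. NF-kB enters the nucleus when its inhibitors are degraded, and it drives chemokine genes as well as the genes of its own inhibitors. Iron regulatory proteins bind stem-loops in messenger RNAs when iron is scarce, protecting the transferrin receptor message and blocking translation of ferritin. The aryl hydrocarbon receptor binds polycyclic aromatic compounds and induces cytochrome P450 enzymes of family 1.

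Total counts per library ran from 15393256 to 27765982, and the EpH4 libraries were the deeper ones. Of 25413 genes in the table, 13716 passed the filter on low counts and were tested. The defining epithelial markers were nearly absent: 12 of 14 genes of an epithelial list were under 1 CPM in every library, with Krt19 and Cldn4 at 0 throughout and Cdh1 at 0.159 CPM or lower. The summed level of that list was 4.69 to 4.73 CPM in untreated EpH4, 9.91 to 10.8 CPM in exposed EpH4, 2.35 to 2.78 CPM in untreated EpH4-AS and 2.16 to 2.55 CPM in exposed EpH4-AS. In EpH4 most of that sum was Krt14, at 3.31 and 3.02 CPM in untreated and 8.31 and 8.88 CPM in exposed libraries. Fibroblast or mesenchymal markers summed to between 4348 and 5403 CPM, and 7 of the 12 were at 1 CPM or more in every library. Vim was the largest part of the mesenchymal sum, at 2048 to 2390 CPM in EpH4 and 3507 to 4707 CPM in EpH4-AS. Macrophage or leukocyte markers summed to between 229 and 298 CPM in EpH4 and between 39.9 and 43.2 CPM in EpH4-AS, most of it from Cd68 (37.5 to 219 CPM over the 8 libraries) and, in EpH4, Cd14 (53.5 to 72.3 CPM), while Ptprc and Cd3e were at or near 0. Endothelial markers summed to 1.09 CPM or less. The part of these marker genes in the results was not tested. In bulk RNA, a change in the number of cells of a kind and a change in RNA per cell cannot be told apart.

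The additive term was called for 1283 genes (9.35% of those tested), 742 higher (5.41%) and 541 lower (3.94%) with PM2.5. Most of these calls were small: 106 were more than 2-fold higher and 52 more than 2-fold lower. The additive term did not by itself mean that both lines moved. Of the 1283 genes, 368 were called in the same direction in each line, 711 in EpH4 only, 185 in EpH4-AS only and 19 in neither. By limma on log2 RPKM the split of additive calls turned to 258 higher and 360 lower. Fitted signs were alike in the lines for 1183 of the 1283 genes, and no gene called by the additive term was called in opposite directions. The model favours both outcomes, since opposite effects cancel in its single PM2.5 term and widen its spread. Across all 13716 genes the log2 fold changes of the lines were nearly unrelated (Pearson's r 0.06, Spearman's rho 0.10, across genes, which are not independent replicates and share library scaling).

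Shared calls were made for 223 genes that were higher in both lines (1.63% of genes tested) and 155 that were lower in both (1.13%). A further 217 genes (1.58%) were called in both lines in opposite directions. The 223 shared rises were 11.4% of the 1956 rises in EpH4 (14.3% of genes tested) and 25.4% of the 877 in EpH4-AS (6.39%). The 155 shared falls were 8.76% of the 1770 falls in EpH4 (12.9%) and 23.8% of the 652 in EpH4-AS (4.75%). The median log2 fold change of the shared rises was 0.38 in EpH4 and 0.43 in EpH4-AS, and that of the shared falls was -0.26 and -0.27. These medians follow from the choice of the genes and are a description. More than 2-fold in both lines were 14 rises and 1 fall, the fall being that of the transferrin receptor Tfrc. These counts set no limit on level beyond the filter, and the rises included genes of low level such as Cxcl3. The difference of the effect between the lines was called for 44 of the rises and 7 of the falls. Under a stricter rule, in which the larger of the 2 lines' p-values was itself adjusted over all genes, 90 rises and 36 falls were shared. DESeq2's Wald test gave 135 and 96. The balance of rises over falls depended on the processing. Limma on log2 RPKM, which changes both the scaling and the test, gave 139 rises and 191 falls. Library totals in place of TMM gave 190 and 203, while DESeq2's size factors in place of TMM gave 204 and 169. The cause was not tested.

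**Figure D1:**
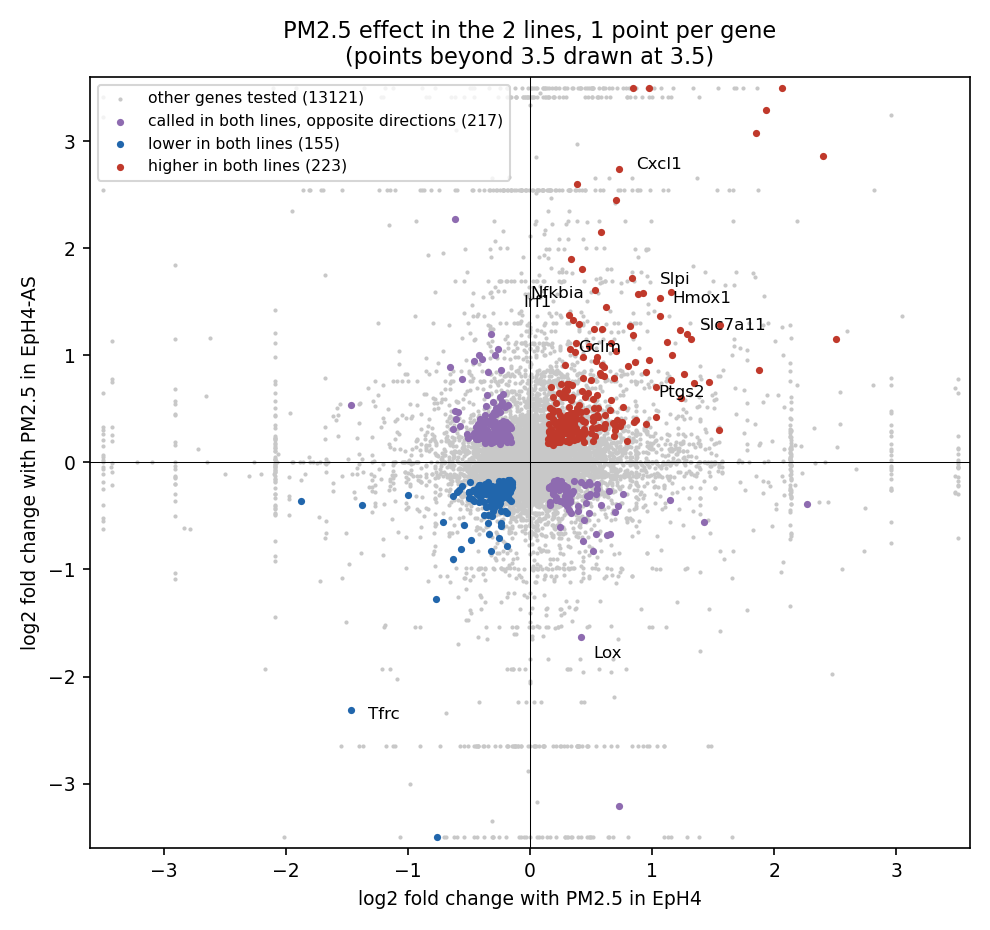
Log2 fold change with PM2.5 in EpH4 (x axis) against that in EpH4-AS (y axis) for 13716 genes, 1 point each; red points are the 223 genes higher in both lines, blue points the 155 lower in both, and purple points the 217 called in opposite directions. Slc7a11, Hmox1 and Gclm lie close to the diagonal, Cxcl1, Irf1 and Nfkbia rise more in EpH4-AS, and Tfrc is the far point at the lower left.

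Shared rises and falls differed in how far they depended on single libraries. When each of the 8 libraries was left out in turn, 57 rises and 8 falls stayed called in both lines in every one of the 8 fits, and the counts of shared calls ranged from 81 to 308 for rises and from 19 to 206 for falls. The lowest counts came from leaving out an EpH4-AS library: 81 rises and 22 falls without untreated replicate 1, 91 and 19 without untreated replicate 2, 143 and 61 without PM2.5 replicate 1, and 103 and 32 without PM2.5 replicate 2. The 57 rises kept in every fit, out of 13716 genes tested, held 10 of the 30 NRF2 genes listed for this work. They also held 5 of the 18 NF-kB feedback and subunit genes and 5 of the 24 NF-kB cytokine and effector genes tested. The 8 falls kept in every fit, named here after their values were seen, were Tfrc, Per2, Smad3, Socs7, Slc27a3, Frmd6, Amotl1 and Gm49388.

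Among shared rises with at least 5 CPM in the higher group of each line and separate libraries, predicted models and pseudogenes aside, the largest by the smaller of the 2 line effects was that of Slc7a11, the cystine importer that feeds glutathione synthesis (ENSMUSG00000027737, chromosome 3, 49846975 to 50398063, GRCm39). Its level was 91.1 and 103 CPM in untreated EpH4 and 242 and 230.3 CPM with PM2.5, and 14.2 and 16.9 CPM in untreated EpH4-AS against 37.0 and 34.1 CPM with PM2.5. Both exposed libraries stood above both untreated ones in each line, while all EpH4-AS libraries lay below the untreated EpH4 level. The additive log2 fold change was 1.25 ± 0.07 (adjusted p = 1.71e-05), made up of 1.29 ± 0.07 in EpH4 and 1.20 ± 0.10 in EpH4-AS. The difference between the lines did not pass the test (adjusted p = 0.671).

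Gclm, the regulatory subunit of glutamate-cysteine ligase, the first enzyme of glutathione synthesis, rose by nearly the same amount in the 2 lines (ENSMUSG00000028124, chromosome 3, 122039206 to 122064381, GRCm39). It was at 143 and 152 CPM in untreated EpH4, 308 and 270.3 CPM in exposed EpH4, 65.3 and 66.4 CPM in untreated EpH4-AS and 127 and 128 CPM in exposed EpH4-AS. The groups did not overlap within a line. The log2 fold change was 0.97 ± 0.06 in EpH4 and 0.95 ± 0.07 in EpH4-AS, and the additive term was 0.96 ± 0.05 (adjusted p = 1.71e-05). The catalytic subunit Gclc also rose in both lines, by the smaller additive log2 value of 0.23 ± 0.05. Gclc was chosen after its values were seen, and its shared call was lost without EpH4 PM2.5 replicate 1 or any 1 EpH4-AS library.

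The promoters of Slc7a11 and Gclm are shown because these genes rose in both lines, with no difference between the lines that passed the test, and hold a match to a searched motif. Each is the 250 bases before the start site from RefSeq on GRCm38.p6, a different build from that of the count table. The capitals mark, in Gclm, 1 match to the antioxidant response element TGACNNNGC, the motif bound by NRF2 with small MAF proteins, on the reverse strand, and in Slc7a11, 2 matches to the ATF4 composite motif TGATGNAAN, 1 on each strand. Txnrd1 was looked at first and had none of its motif in this window, and Hmox1 had no entry in the table.
Gclm, chr3:122245307-122245556, plus strand: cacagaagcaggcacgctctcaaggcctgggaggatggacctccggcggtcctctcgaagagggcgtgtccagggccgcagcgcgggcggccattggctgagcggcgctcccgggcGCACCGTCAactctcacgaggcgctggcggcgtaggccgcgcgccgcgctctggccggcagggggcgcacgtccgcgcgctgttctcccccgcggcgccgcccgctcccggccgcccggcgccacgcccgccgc
Slc7a11, chr3:50443614-50443863, minus strand: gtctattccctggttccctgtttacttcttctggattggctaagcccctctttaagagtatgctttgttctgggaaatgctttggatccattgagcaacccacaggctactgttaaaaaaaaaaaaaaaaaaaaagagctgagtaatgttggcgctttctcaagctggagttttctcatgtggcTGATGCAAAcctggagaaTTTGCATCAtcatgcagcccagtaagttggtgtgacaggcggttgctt

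Hmox1, heme oxygenase 1, which breaks heme down to iron, carbon monoxide and biliverdin, rose with no overlap between exposed and untreated libraries of either line (ENSMUSG00000005413, chromosome 8, 75820249 to 75827217, GRCm39). The untreated libraries held 928 and 1005 CPM in EpH4 and 1236 and 1216 CPM in EpH4-AS, and the exposed ones 2196 and 1842 CPM and 3070 and 3253 CPM. Every exposed library, of either line, was thus above every untreated one. The additive log2 fold change was 1.21 ± 0.09 (adjusted p = 0.000101), with 1.06 ± 0.08 in EpH4 and 1.37 ± 0.08 in EpH4-AS. Of all genes tested, 130 (0.948%) had 4 exposed libraries above 4 untreated ones, and 45 of those were shared rises. Blvrb, biliverdin reductase B, which acts on a product of heme breakdown, rose by 0.52 ± 0.05 in EpH4 and 0.51 ± 0.05 in EpH4-AS on the log2 scale.

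**Figure D2:**
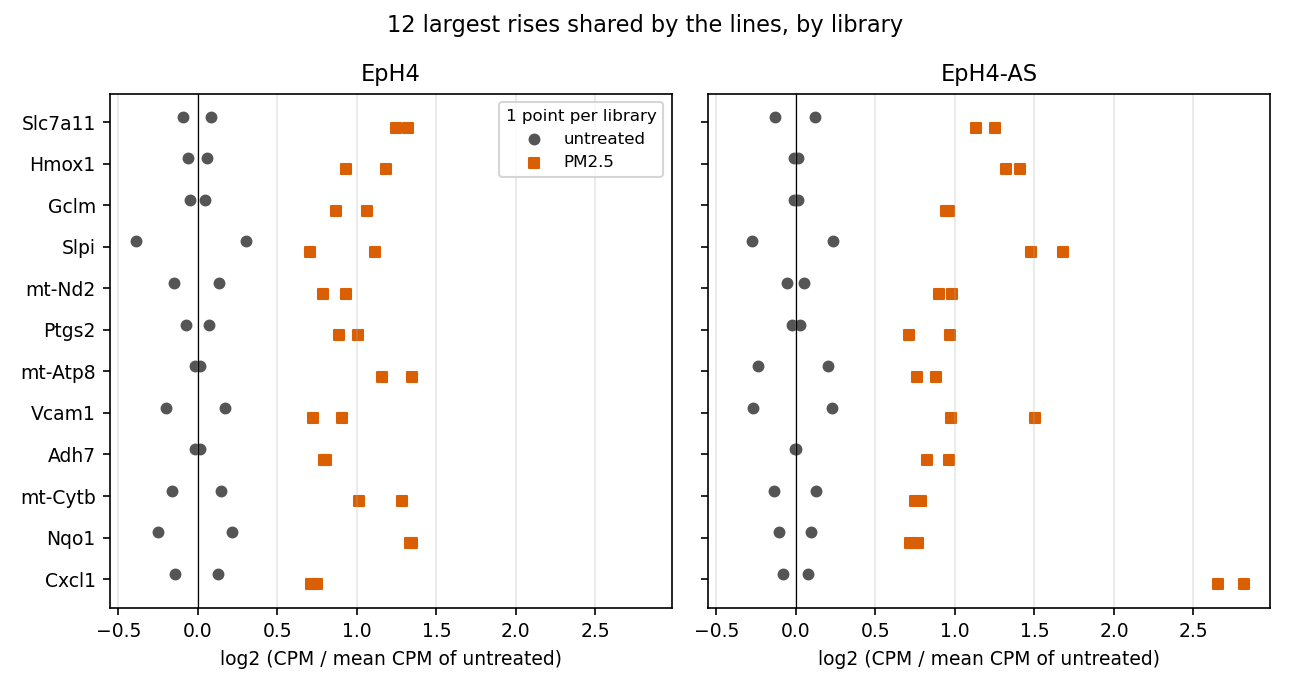
Level of the 12 largest shared rises in each library as log2 of the CPM over the mean CPM of untreated spheroids of the same line (x axis), with EpH4 on the left and EpH4-AS on the right; grey circles are untreated and orange squares are exposed libraries. In each line both orange squares lie to the right of both grey circles for all 12 genes, and Cxcl1 in EpH4-AS lies farthest right.

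Of the 30 NRF2 genes listed, all 30 were tested, 24 rose by the additive term and 0 fell, and 19 rose in both lines. Of all genes tested, 5.41% rose and 3.94% fell by the additive term, and 1.63% rose and 1.13% fell in both lines. These shares are also the ones to set beside the later list counts. The median log2 fold change was 0.44 for the additive term, 0.35 in EpH4 and 0.42 in EpH4-AS, beside 0.01, 0.00 and 0.00 over all genes tested. The count of 19 fell to 11 without EpH4-AS untreated replicate 1. The list is not independent of the results, since earlier results of these data were known when it was drawn up.

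The NRF2 genes that rose covered several arms of the response, and the members named in this paragraph beyond Blvrb, Nqo1 and Sqstm1 were chosen after their values were seen. Nqo1, a quinone reductase, went from 83.1 and 60.3 CPM to 181 and 183 CPM in EpH4 and from 5.78 and 6.64 CPM to 10.6 and 10.2 CPM in EpH4-AS. Its exposed libraries stood apart within each line, but its call in EpH4-AS (log2 0.74 ± 0.20, adjusted p = 0.0286) was lost when any 1 EpH4-AS library was left out, with an adjusted p of up to 0.202. Of the NADPH-supplying enzymes, Me1, malic enzyme, was at 104 and 97.7 CPM in untreated and 140.4 and 136 CPM in exposed EpH4, and at 104 and 105 CPM against 146 and 146 CPM in EpH4-AS. Its 4 exposed libraries were all above its 4 untreated ones and the lines responded alike, by 0.46 ± 0.05 and 0.48 ± 0.05 on the log2 scale. G6pdx, Pgd, Taldo1 and Tkt of the pentose phosphate pathway rose in both lines as well, with additive log2 values of 0.35, 0.50, 0.50 and 0.33. Txnrd1, thioredoxin reductase, rose by 0.37 ± 0.06 in EpH4 and 0.45 ± 0.06 in EpH4-AS, and catalase, Cat, by 0.71 ± 0.05 and 0.39 ± 0.05. The shared call of Pgd was lost without EpH4-AS untreated replicate 1, that of G6pdx without either untreated replicate or PM2.5 replicate 2 of EpH4-AS, and that of Taldo1 without any 1 EpH4-AS library. Cat, Pgd, Taldo1 and Tkt differed between the lines by the test of the difference.

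The list's glutathione S-transferases rose to unlike degrees. Gsta3 went from 4.18 and 5.45 CPM to 27.6 and 26.8 CPM in EpH4 and from 1.39 and 2.21 CPM to 4.20 and 3.80 CPM in EpH4-AS, and Gstp1 from 276 and 251 CPM to 328 and 308 CPM and from 146 and 149 CPM to 227 and 224 CPM. Exposed libraries were the higher ones for both genes in each line, but the rise of Gsta3 was larger in EpH4 (log2 2.5 ± 0.13 against 1.16 ± 0.24) and that of Gstp1 in EpH4-AS (0.61 ± 0.06 against 0.27 ± 0.06). The call of Gsta3 in EpH4-AS was lost without untreated or PM2.5 replicate 1 of that line. Both were chosen after their values were seen, as was Osgin1, an oxidative stress response gene, with an additive log2 value of 0.72 ± 0.10.

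Some members of the same list did not follow. Sqstm1, the p62 autophagy receptor, was at 1456 and 1545 CPM in untreated and 1437 and 1361 CPM in exposed EpH4, while it went from 226 and 238 CPM to 410.2 and 432 CPM in EpH4-AS. The exposed libraries lay below the untreated ones in EpH4 and above them in EpH4-AS, and the additive term did not pass (log2 0.37 ± 0.16, adjusted p = 0.167). Thioredoxin, Txn1, and sulfiredoxin, Srxn1, both chosen after their values were seen, had additive log2 values of 0.13 ± 0.06 and 0.12 ± 0.07 that did not pass. Aldh3a1, an aldehyde dehydrogenase, had a large additive value of 1.87 ± 0.22 that was called (adjusted p = 0.00132), yet at 1.26 to 4.96 CPM its effect in EpH4-AS did not pass (log2 1.55 ± 0.63, adjusted p = 0.138). Its EpH4 libraries held 54.2 to 321 CPM.

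**Figure D3:**
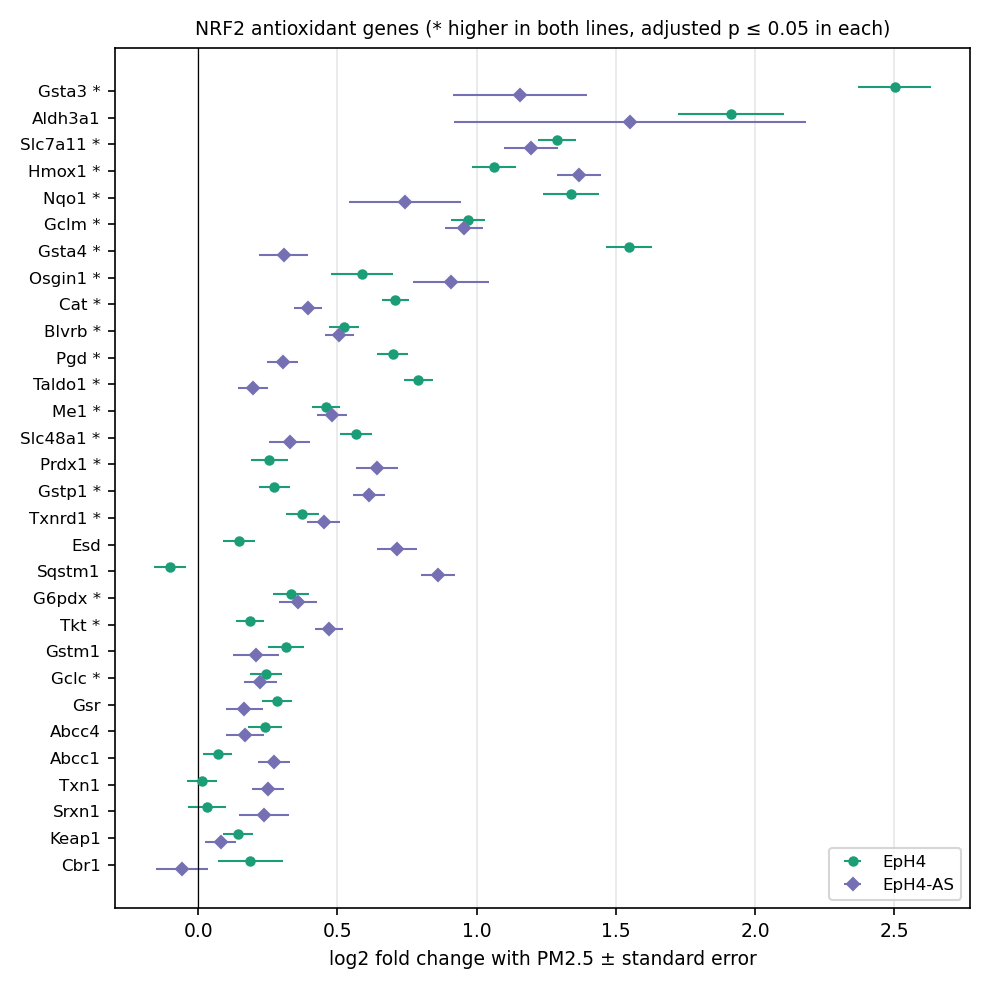
Log2 fold change with PM2.5 (x axis, bars are the standard error) of the 30 NRF2 genes in EpH4 (green circles) and EpH4-AS (purple diamonds), ordered by the additive term; an asterisk marks the 19 genes higher in both lines. Slc7a11, Gclm, Blvrb and Me1 have overlapping bars in the 2 lines, and Sqstm1 is near 0 in EpH4 and at 0.86 in EpH4-AS.

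The largest shared fall was that of Tfrc, the transferrin receptor through which cells take up iron (ENSMUSG00000022797, chromosome 16, 32427738 to 32451612, GRCm39). Untreated libraries held 293 and 222 CPM in EpH4 and 375 and 367 CPM in EpH4-AS, and exposed libraries 86.8 and 99.7 CPM in EpH4 and 79.0 and 70.2 CPM in EpH4-AS. All 4 exposed libraries were below all 4 untreated ones, which held for 110 genes tested (0.802%) and 26 of the shared falls. The additive log2 fold change was -1.88 ± 0.16 (adjusted p = 0.000298), and the fall was larger in EpH4-AS (-2.31 ± 0.11) than in EpH4 (-1.46 ± 0.10, adjusted p of the difference = 0.00184).

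Ferritin, the iron store, went the other way for 1 of its 2 chains. Ftl1, the light chain (ENSMUSG00000050708, chromosome 7, 45107368 to 45109308, GRCm39), was at 3343 and 3365 CPM in untreated and 4016 and 4138 CPM in exposed EpH4, and at 85.5 and 98.0 CPM against 137 and 152 CPM in EpH4-AS. Groups did not overlap within a line, and the additive log2 fold change was 0.46 ± 0.09 (adjusted p = 0.0142). Fth1, the heavy chain, had additive log2 0.20 ± 0.09 that did not pass (adjusted p = 0.204). Its exposed EpH4 libraries, 14440 and 17450 CPM, overlapped in range with the untreated ones at 15060 and 13900 CPM. Near-identical ferritin copies elsewhere in the genome can share reads, so these 2 values are uncertain.

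The messages of Tfrc, Ftl1 and Fth1 carry the stem-loops that iron regulatory proteins bind, and they are shown because the 3 transcripts stand on the import and storage sides of iron balance. A search of GENCODE M21 transcripts (GRCm38) for an iron-responsive-element shape, a C, 5 bases, the loop CAGTGN and 5 bases that pair with the first 5, was set up after the values were seen. In these 3 messages it found 4 sites in the 3′ UTR of Tfrc and 1 in the 5′ UTR of Ftl1 and of Fth1. Sites were also found outside the 3, in all in 251 protein-coding genes. Each line below is a 25-base window, and the capitals mark the first 5 bases of the loop.
Tfrc, chr16:32631221-32631245, plus strand: ttatcggaagCAGTGccttccataa
Tfrc, chr16:32631600-32631624, plus strand: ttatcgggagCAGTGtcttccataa
Tfrc, chr16:32631665-32631689, plus strand: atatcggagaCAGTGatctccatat
Tfrc, chr16:32631712-32631736, plus strand: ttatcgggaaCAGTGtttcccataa
Ftl1, chr7:45459781-45459805, minus strand: cttgcttcaaCAGTGtttgaacgga
Fth1, chr19:9982734-9982758, plus strand: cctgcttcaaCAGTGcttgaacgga

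Over the shared genes this shape was rare. It was in 251 of 21877 protein-coding genes (1.15%), in 3 of 217 shared rises (1.38%) and in 4 of 149 shared falls (2.68%) that could be matched. Of the 25 genes tested from the iron list, 7 rose and 2 fell by the additive term, 5 rose and 1 fell in both lines, and the median additive log2 fold change was 0.06. Over all genes tested these shares were 5.41%, 3.94%, 1.63% and 1.13%, and the median was 0.01. The 7 additive rises became 3 without EpH4-AS untreated replicate 1, untreated replicate 2 or PM2.5 replicate 2, 4 without EpH4-AS PM2.5 replicate 1 or either exposed EpH4 library, and 5 without either untreated EpH4 library. The 5 that rose in both lines were Hmox1, Ftl1, Slc48a1, a heme transporter, Slc25a37, which brings iron into mitochondria, and Pcbp1, an iron chaperone. The last 2 were chosen after their values were seen. Of the shared calls on the iron list, those of Hmox1, Ftl1 and Tfrc were kept in all 8 fits with a library left out. Slc48a1 lost its call without either untreated replicate or PM2.5 replicate 2 of EpH4-AS, Slc25a37 without either EpH4 untreated replicate 1 or exposed replicate 2, and Pcbp1 without EpH4 PM2.5 replicate 2 or any 1 EpH4-AS library. Bmp6, a secreted ligand in the control of systemic iron, fell by the additive term (-2.17 ± 0.35, adjusted p = 0.00646), but in EpH4-AS it was at 1.17 to 2.23 CPM and the effect there did not pass (-0.62 ± 0.31, adjusted p = 0.241).

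Metal-response genes were few. Of 7 tested, 2 rose in both lines: Mt1, a metallothionein that binds zinc and cadmium, and Slc30a1, a zinc exporter of the plasma membrane. Mt1 was at 259 and 250.3 CPM in untreated and 357 and 349.7 CPM in exposed EpH4, and at 13.3 and 14.4 CPM against 20.1 and 23 CPM in EpH4-AS. Its exposed libraries were higher in both lines, with an additive log2 fold change of 0.54 ± 0.06 (adjusted p = 0.00106). Mt2 did not pass by the additive term (log2 0.46 ± 0.14, adjusted p = 0.058), being called in EpH4-AS (0.85 ± 0.12) and not in EpH4 (0.17 ± 0.09). The call of Slc30a1 in EpH4-AS was lost when any 1 EpH4-AS library was left out, with an adjusted p of up to 0.132.

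Aryl hydrocarbon receptor targets gave 1 shared call among 13 tested, that of Nqo1, which is also an NRF2 gene. The count was 0 without any 1 EpH4-AS library and 3 without either untreated EpH4 library. Cyp1a1, the most familiar target of the receptor, was at 1.14 CPM or less in every library and did not pass (additive adjusted p = 0.171). Cyp1b1 went from 7.38 and 6.04 CPM to 12.4 and 13.8 CPM in EpH4 and from 0.241 and 0.506 CPM to 1.23 and 0.76 CPM in EpH4-AS. The groups did not overlap within a line and the additive term passed (log2 1.01 ± 0.16, adjusted p = 0.00516), but the effect in EpH4-AS did not (adjusted p = 0.0785). Tiparp, another target, had an additive log2 fold change of 0.16 ± 0.07 that did not pass (adjusted p = 0.194).

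Several genes of NF-kB feedback rose in both lines, some of them by more in EpH4-AS. Nfkbia, which encodes the inhibitor IkB alpha (ENSMUSG00000021025, chromosome 12, 55536195 to 55539432, GRCm39), was at 91.7 and 86.4 CPM in untreated and 142 and 131 CPM in exposed EpH4, and at 181 and 184 CPM against 497 and 505 CPM in EpH4-AS. Both lines showed separate groups, and the exposed EpH4 level was still below that of untreated EpH4-AS. The log2 fold change was 0.62 ± 0.06 in EpH4 and 1.45 ± 0.05 in EpH4-AS (additive 1.04 ± 0.14, adjusted p = 0.00298; adjusted p of the difference = 3.08e-05). Nfkbie, which encodes a further inhibitor, had 4 exposed libraries at 17.4 to 23 CPM above 4 untreated ones at 9.81 to 15.2 CPM.

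Of the 18 genes on the NF-kB feedback and subunit list, 10 rose and 0 fell by the additive term and 7 rose in both lines. Over all genes tested these shares were 5.41%, 3.94% and 1.63%. The median log2 fold change was 0.56 for the additive term, 0.21 in EpH4 and 0.66 in EpH4-AS. Besides Nfkbia and Nfkbie, the shared rises were Nfkb1, Nfkb2, Tnfaip3, Traf1 and Zc3h12a, of which Nfkb1 and Traf1 were named after their values were seen. The call of Traf1 was lost without EpH4 PM2.5 replicate 1 or any 1 EpH4-AS library. Tnfaip3, the deubiquitinase A20, went from 89.0 and 94.3 CPM to 119 and 117 CPM in EpH4 and from 72.9 and 67.9 CPM to 143 and 144 CPM in EpH4-AS, and was chosen after its values were seen. Zc3h12a, an RNase that degrades cytokine messages and was likewise chosen later, rose by 0.42 ± 0.11 in EpH4 and 1.81 ± 0.12 in EpH4-AS, with the EpH4 call lost without untreated or PM2.5 replicate 2 of that line. Tnip1, an inhibitor of NF-kB signalling that was also chosen later, was called in opposite directions, -0.38 in EpH4 and 0.32 in EpH4-AS.

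Cxcl1, a neutrophil-attracting chemokine (ENSMUSG00000029380, chromosome 5, 91039100 to 91040974, GRCm39), had the largest line difference among the 12 leading rises. It stood at 209 and 252 CPM in untreated and 387 and 377 CPM in exposed EpH4, and at 19.0 and 21.2 CPM against 127 and 142 CPM in EpH4-AS. In each line the exposed libraries were separate from the untreated ones, although exposed EpH4-AS stayed below untreated EpH4. The log2 fold change was 0.73 ± 0.08 in EpH4 and 2.74 ± 0.10 in EpH4-AS (adjusted p of the difference = 8.40e-07), and the additive term was 1.61 ± 0.32 (adjusted p = 0.0159).

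The promoters of Cxcl1 and Nfkbia are shown because both hold a match to the kappa B motif, which is G at 3 positions, any 3 bases and then TTCC, searched on both strands in the same 250-base windows. Capitals mark the matches. In these windows Cxcl1 has 2 stretches of capitals, the one farther from the start site beginning 89 bases before it, and Nfkbia has 1, beginning 29 bases before it.
Cxcl1, chr5:90890995-90891244, plus strand: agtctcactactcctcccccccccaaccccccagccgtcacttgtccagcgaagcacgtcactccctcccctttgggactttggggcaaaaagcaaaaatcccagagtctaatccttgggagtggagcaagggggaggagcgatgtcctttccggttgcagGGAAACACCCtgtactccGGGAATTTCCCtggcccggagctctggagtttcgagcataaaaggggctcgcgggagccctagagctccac
Nfkbia, chr12:55492648-55492897, minus strand: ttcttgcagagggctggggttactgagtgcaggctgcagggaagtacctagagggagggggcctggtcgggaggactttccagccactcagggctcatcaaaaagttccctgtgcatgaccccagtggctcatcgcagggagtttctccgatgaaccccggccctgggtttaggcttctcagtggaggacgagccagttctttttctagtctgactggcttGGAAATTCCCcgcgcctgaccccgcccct

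Of the 24 NF-kB cytokine and effector genes tested, 11 rose and 0 fell by the additive term and 6 rose in both lines, beside 5.41%, 3.94% and 1.63% of all genes tested. The median log2 fold change was 0.83 for the additive term, 0.45 in EpH4 and 0.86 in EpH4-AS. Ptgs2, cyclooxygenase 2, which starts prostaglandin synthesis, went from 763 and 689.9 CPM to 1346 and 1460 CPM in EpH4 and from 105 and 109 CPM to 175 and 209 CPM in EpH4-AS. Its groups were separate in each line, and the effects were alike in size, 0.95 ± 0.08 and 0.84 ± 0.08 on the log2 scale. Cxcl3, which lies near Cxcl1 on chromosome 5 (90933962 to 90937459), was low throughout, at 0.145 to 0.318 CPM without and 0.863 to 2.55 CPM with PM2.5, and all exposed libraries were above all untreated ones. Vcam1, a leukocyte adhesion molecule, rose in both lines as well (additive log2 0.91 ± 0.13), with the EpH4-AS call lost without 3 of that line's libraries, untreated replicates 1 and 2 and PM2.5 replicate 2. Sod2, the mitochondrial superoxide dismutase, and Ccl2, a monocyte chemokine, both chosen after their values were seen, completed the 6, with additive log2 values of 1.05 and 0.92. Cx3cl1, a chemokine outside this list that was also chosen later, fell in both lines (log2 -0.19 in EpH4 and -0.47 in EpH4-AS). Its shared call was kept in 3 of the 8 fits with a library left out. Icam1 and Csf3 show the limit of the additive term: Icam1 was at 0.123 CPM or less in EpH4 and rose in EpH4-AS only by the test (log2 1.04 ± 0.06), and Csf3 was called in EpH4 (1.60 ± 0.13) and missed the threshold in EpH4-AS (1.66 ± 0.53, adjusted p = 0.0604).

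Interferon and antigen-processing genes were examined beside NF-kB. Of 28 interferon-stimulated genes tested, 8 rose by the additive term and 0 were called in both lines. In EpH4 15 were called higher, and in EpH4-AS 1, beside 14.3% and 6.39% of all genes tested. The difference between the lines was called for only 4 of the 28, and the median log2 fold change was 0.47 in EpH4 and 0.21 in EpH4-AS. The 8 became 2 when replicate 1 of either EpH4 group was left out, 3 without EpH4 PM2.5 replicate 2, 4 without EpH4-AS PM2.5 replicate 2, and 5 without EpH4 untreated replicate 2 or EpH4-AS untreated replicate 1. A list of 27 antigen-processing and MHC class I genes, drawn up after the values were seen, had 14 rises by the additive term and 11 in both lines, with 2 in opposite directions and a median additive log2 value of 0.25. It is a description of genes picked with their values known, and the count of 11 fell to 6 without either untreated EpH4-AS library and to 7 without PM2.5 replicate 2 of that line. In it, the immunoproteasome subunit Psmb10 went from 5.60 and 5.41 CPM to 8.38 and 9.41 CPM in EpH4 and from 16.6 and 16.4 CPM to 26.3 and 30.4 CPM in EpH4-AS. The proteasome activator subunits Psme1 and Psme2 rose by additive log2 values of 0.53 ± 0.06 and 0.47 ± 0.05, nearly alike in the lines. Irf1, a transcription factor induced by interferon gamma and NF-kB, rose in both lines but by 0.32 ± 0.07 in EpH4 and 1.37 ± 0.07 in EpH4-AS. Constitutive proteasome subunits gave no shared call among 27 tested. The additive term called 3 of them, but 0 without EpH4 PM2.5 replicate 1, EpH4-AS untreated replicate 1 or 2, or EpH4-AS PM2.5 replicate 2, and 1 without EpH4-AS PM2.5 replicate 1.

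Mitochondrially encoded transcripts rose in both lines, from levels that differed widely. They took 2.73% and 2.21% of counts in untreated EpH4, 4.23% and 5.03% in exposed EpH4, 0.219% and 0.246% in untreated EpH4-AS and 0.27% and 0.302% in exposed EpH4-AS. The exposed share was the higher one in each line, and every EpH4-AS library was below every EpH4 library. Of the 13 genes, 12 rose by the additive term and 8 in both lines, with median log2 values of 0.73, 0.99 in EpH4 and 0.42 in EpH4-AS. The additive count of 12 fell to 7 without EpH4 untreated replicate 1. The shared count of 8 fell to 2 without EpH4-AS untreated replicate 1, to 4 without untreated replicate 2, to 4 without PM2.5 replicate 1 and to 3 without PM2.5 replicate 2 of that line. mt-Nd2, a complex I subunit, was at 597 and 491 CPM in untreated and 939 and 1038 CPM in exposed EpH4, and at 15.8 and 17.0 CPM against 32.3 and 30.6 CPM in EpH4-AS, with 0.86 ± 0.08 and 0.94 ± 0.12 on the log2 scale. mt-Cytb (additive 0.97 ± 0.11) and mt-Atp8 (1.13 ± 0.10) were also among the 12 leading rises, the latter losing its EpH4-AS call without untreated replicate 1 of that line. Without these 13 genes in the normalisation, 212 rises and 146 falls were shared.

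A protease inhibitor and an alcohol dehydrogenase were also among the 12 leading rises. Slpi, the secretory leukocyte protease inhibitor, was at 1039 and 642 CPM in untreated and 1373 and 1816 CPM in exposed EpH4, and at 8.49 and 12.1 CPM against 28.6 and 32.9 CPM in EpH4-AS. The untreated EpH4 libraries were far apart from each other, yet below the exposed ones, and the additive log2 value was 1.18 ± 0.19 (adjusted p = 0.0064). The EpH4-AS call of Slpi was lost without untreated replicate 1 of that line (adjusted p = 0.0571). Adh7, which oxidises retinol and other alcohols, went from 69.6 and 71.2 CPM to 123 and 122 CPM in EpH4 and from 4.21 and 4.24 CPM to 7.47 and 8.25 CPM in EpH4-AS. Its replicates were close and its groups separate, and the additive log2 value was 0.82 ± 0.05 (adjusted p = 8.71e-05).

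The other shared falls were smaller than that of Tfrc. Per2, a repressor of the circadian clock (ENSMUSG00000055866, chromosome 1, 91343704 to 91387046, GRCm39), was at 48.2 and 59.1 CPM in untreated and 32.1 and 33.3 CPM in exposed EpH4, and at 54.9 and 54.3 CPM against 37.6 and 36.5 CPM in EpH4-AS. All exposed libraries were below all untreated ones, and the additive log2 fold change was -0.64 ± 0.07 (adjusted p = 0.00102). Of 20 clock genes tested, a list drawn up after the values were seen, 4 fell and 0 rose by the additive term, the 4 becoming 2 without any 1 EpH4 library, and only Per2 and Cry2, another clock repressor, fell in both lines. The clock median was -0.08 for the additive term, beside 0.01 over all genes tested, of which 3.94% fell by the additive term and 1.13% in both lines. The Cry2 call in EpH4-AS was lost when any 1 EpH4-AS library was left out.

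Smad3, which carries TGF-beta signals to the nucleus, and Socs7, a member of the SOCS family, fell in both lines with every library left out in turn. Smad3 was at 108 and 113 CPM in untreated and 88.0 and 86.5 CPM in exposed EpH4, and at 59.4 and 59.2 CPM against 43.6 and 40.5 CPM in EpH4-AS (additive log2 -0.41 ± 0.05). Socs7 was at 77.0 and 76.3 CPM against 60.1 and 59.4 CPM in EpH4 and 46.2 and 43.9 CPM against 35.4 and 32.4 CPM in EpH4-AS (additive log2 -0.38 ± 0.05). Replicates of both genes lay close together, and exposed and untreated libraries did not overlap within a line. Slc27a3, a fatty acid transport protein family member, fell by the larger additive log2 value of -0.57 ± 0.07.

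Dhrs9, a retinol dehydrogenase, fell by -0.63 ± 0.10 in EpH4 and -0.90 ± 0.17 in EpH4-AS. It was at 24.2 and 26.2 CPM in untreated and 15.7 and 16.8 CPM in exposed EpH4, and at 5.66 and 7.08 CPM against 3.79 and 3.04 CPM in EpH4-AS. Slc24a3, a sodium, potassium and calcium exchanger, Taf8, a subunit of the general transcription factor TFIID, Bcl6, a transcriptional repressor, Tusc2, Plcd3, a phospholipase C, and Smim11 made up the rest of the 12, with additive log2 values between -0.55 and -0.37. Their calls, and that of Dhrs9, were each lost without at least 1 library. For Tusc2 and Plcd3 these were all 4 EpH4-AS libraries. Slc24a3 lost it without untreated replicate 1, untreated replicate 2 or PM2.5 replicate 1 of EpH4-AS, and Bcl6 without untreated replicate 1, untreated replicate 2 or PM2.5 replicate 2 of that line. Taf8 and Dhrs9 lost it without untreated replicate 2 or PM2.5 replicate 2 of EpH4-AS, and Smim11 in 6 of the 8 fits, all but those without EpH4 untreated replicate 2 and EpH4-AS PM2.5 replicate 1.

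**Figure D4:**
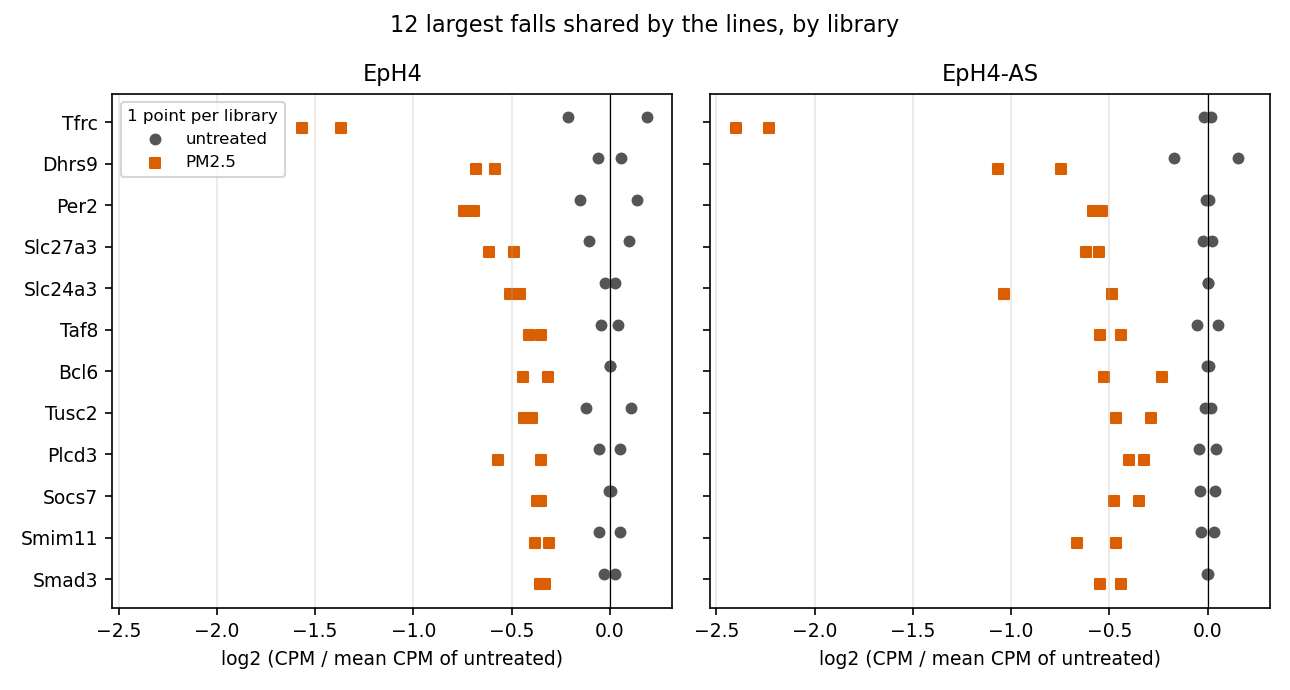
Level of the 12 largest shared falls in each library as log2 of the CPM over the mean CPM of untreated spheroids of the same line (x axis), with EpH4 on the left and EpH4-AS on the right; grey circles are untreated and orange squares are exposed libraries. Tfrc stands to the left of all others, and for all 12 genes both exposed libraries lie below both untreated ones in each line.

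Other lists held a few shared members each. Over all genes tested, 1.63% rose and 1.13% fell in both lines, and 5.41% rose by the additive term. Of 23 p53 targets tested, 7 rose by the additive term, with 3 to 10 when a library was left out, the lowest without EpH4 untreated replicate 1. In both lines 3 rose: Plk2, a polo-like kinase, Fas, a death receptor, and Eda2r, a receptor of the TNF receptor family. Plk2 was at 256 and 302 CPM in untreated and 465 and 444 CPM in exposed EpH4, and at 162 and 159 CPM against 311 and 346 CPM in EpH4-AS, so that all exposed libraries were above all untreated ones (additive log2 0.87 ± 0.08, adjusted p = 0.000546). Among the TGF-beta targets, Ccn2, a matricellular protein, rose in both lines (additive log2 1.12 ± 0.14), a call that was lost without EpH4 PM2.5 replicate 2. Gpnmb, a glycoprotein of lysosomes and the cell surface, rose by an additive log2 value of 0.62 ± 0.07, and it was 1 of 2 shared rises among 29 autophagy and lysosome genes. Of 26 immediate early genes, Fosl1, Zfp36l1 and Ier5 rose in both lines, the call of Fosl1 being lost without either EpH4 untreated replicate 1 or exposed replicate 2, and that of Ier5 without any 1 EpH4-AS library. Of 19 genes of EGF family ligands and MAPK feedback, the ligand Areg was the 1 shared rise (additive log2 0.33 ± 0.05), and it was lost without EpH4-AS untreated replicate 2. Of 17 lipid uptake and PPAR target genes, 2 rose and 6 fell by the additive term, and 2 rose and 2 fell in both lines. With a library left out, the shared rises became fewer in 7 of the 8 fits, down to 0. The shared falls were those of Lpl, lipoprotein lipase, and Pparg, although the additive term did not pass for Pparg (-0.56 ± 0.17, adjusted p = 0.0715). Pparg was at 0.495 to 2.91 CPM in EpH4 and 198 to 259 CPM in EpH4-AS, and was chosen after its values were seen. The EpH4-AS call was lost without untreated replicate 1 of that line for Pparg, and without either untreated replicate or PM2.5 replicate 2 for Lpl. Pparg is itself on the adipocyte marker list and makes up most of that list's sum in EpH4-AS. That sum was 368 to 375 CPM in untreated and 271 CPM in exposed EpH4-AS, and 3.4 to 4.2 CPM in untreated and 1.6 to 2.4 CPM in exposed EpH4. Of the other members, Cidec was at 49.2 to 51.3 CPM in untreated and 52.3 to 53.9 CPM in exposed EpH4-AS. Cd36 went from 49.6 and 50.2 CPM to 13.5 and 12.2 CPM there, and Fabp4 from 16.9 and 13.9 CPM to 5.8 and 4.8 CPM. Adipoq was at 0.0602 CPM or less in every library. The part of these genes in the result was not tested.

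**Figure D5:**
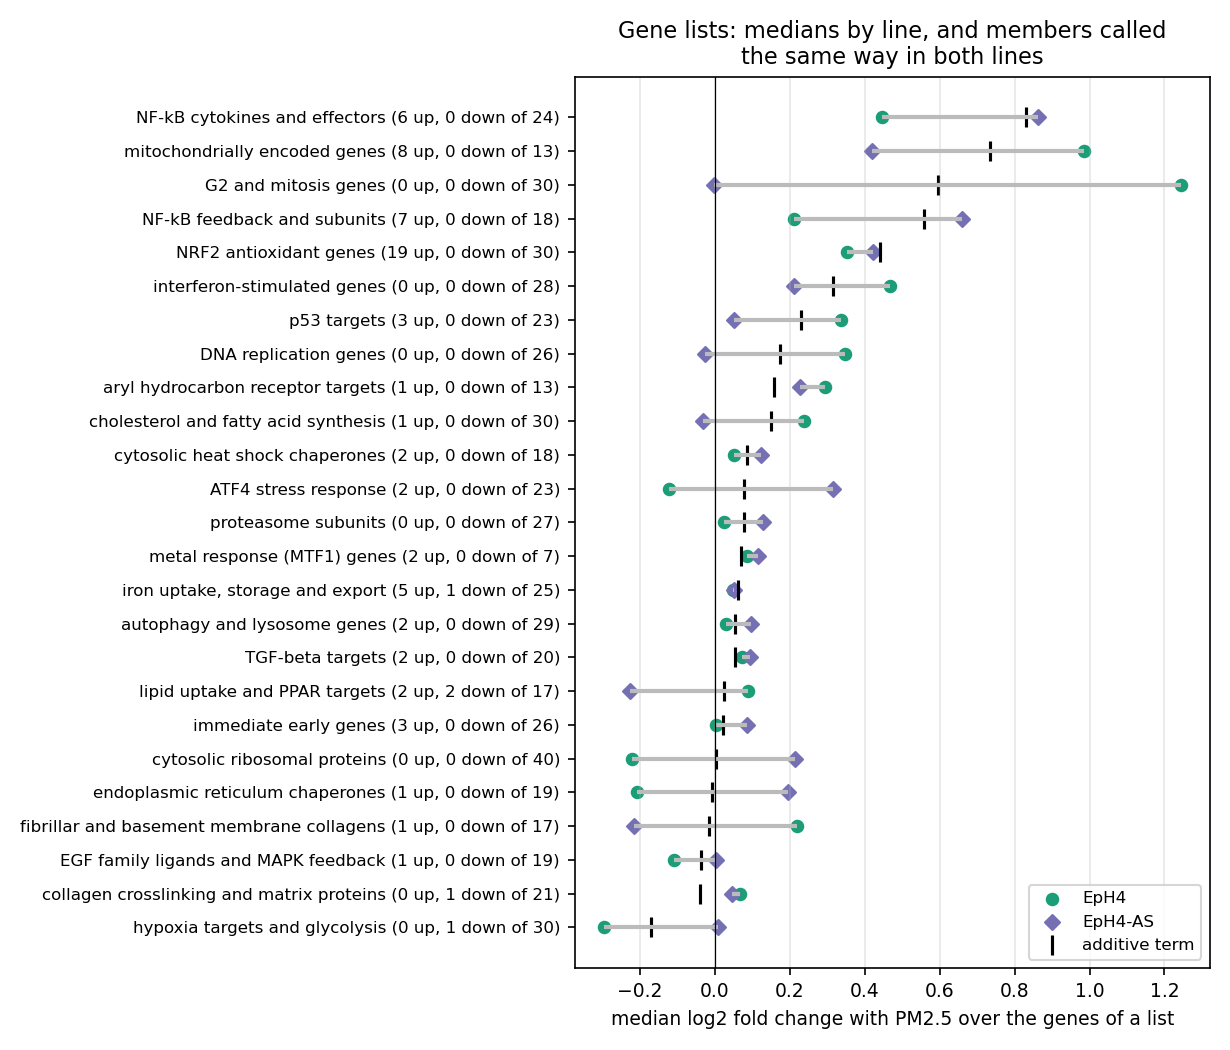
Median log2 fold change with PM2.5 (x axis) over the tested genes of each of the 25 lists in EpH4 (green circles), in EpH4-AS (purple diamonds) and for the additive term (black ticks), with the number of members called the same way in both lines beside each name. The NRF2 list has the most shared rises, 19 of 30, and the ATF4, ribosomal protein and endoplasmic reticulum chaperone lists have medians on opposite sides of 0.

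Several lists moved in 1 line, or in opposite directions, rather than together. Over all genes tested, 14.3% rose and 12.9% fell in EpH4, and 6.39% rose and 4.75% fell in EpH4-AS. All 30 G2 and mitosis genes tested were called higher in EpH4 and 0 in EpH4-AS, with medians of 1.24 and 0.00, and only Cenpa, a centromeric histone, was called by the additive term, with 6 called without EpH4-AS PM2.5 replicate 1 and 2 without EpH4-AS untreated replicate 1. Of 26 DNA replication genes, 19 rose in EpH4, 0 in EpH4-AS and 0 in both. Cytosolic ribosomal proteins fell in EpH4 for 25 of 40 and rose in EpH4-AS for 20, 12 of them called in both lines in opposite directions, and the additive term called 0. Of 23 genes of the ATF4 stress response, 7 were opposite, and only Slc7a11 and Ddit4, an inhibitor of mTORC1, were shared rises. Slc7a11 is also on the NRF2 list. Of 30 hypoxia and glycolysis genes, 1 fell in both lines, Egln1, an oxygen-sensing prolyl hydroxylase, and its EpH4-AS call was lost when any 1 EpH4-AS library was left out.

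Opposite calls are shown by Lox. Lox, lysyl oxidase, which crosslinks collagen, went from 1389 and 1450 CPM to 1899 and 1885 CPM in EpH4 and from 219 and 236 CPM to 68.6 and 78.1 CPM in EpH4-AS. The lines thus moved apart, by 0.41 ± 0.06 and -1.63 ± 0.07 on the log2 scale, and the additive term of -0.57 ± 0.34 did not pass (adjusted p = 0.308). Met, Sgk1 and Arl4c likewise rose in EpH4 and fell in EpH4-AS, and Ppp1r15a and Cdk2ap2 did the reverse. For these 5 the additive log2 value lay between -0.12 and 0.02.

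Promoters of the shared genes were compared for 5 motifs over the 250 bases before the start site, as a description with no test. Of the shared genes, 163 of 223 rises and 122 of 155 falls had a promoter in the RefSeq table. The kappa B motif was in 10.4% of the shared rises, 5.74% of the shared falls, 5.09% of all 10200 tested genes with a promoter and 4.6% of all 27025 promoters. The antioxidant response element TGACNNNGC was in 16.6% of the rises, 11.5% of the falls, 11.8% of tested genes and 10.1% of all promoters. The AP-1 motif TGANTCA, which can overlap the antioxidant element, was in 8.59%, 5.74%, 4.52% and 6.87%. The xenobiotic response element GCGTG, the core bound by the aryl hydrocarbon receptor, was in 44.8% of the rises and 65.6% of the falls, beside 45.1% of tested genes and 28.2% of all promoters. The ATF4 composite motif TGATGNAAN was in 2.45%, 0.82%, 2.19% and 3.51%. A match is a stretch of letters and not a measured binding site.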

How the data were processed

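Polyadenylated RNA of 8 libraries, 2 in each of 4 groups set by the labels, was sequenced in 1 batch with the Illumina Stranded mRNA Prep kit, per the labels' protocols. The authors deposited a table of raw read counts per gene, which was analysed here, and a table that repeats them beside RPKM, on GRCm39 per the submitters' processing notes; aligner, counter and annotation were not given in these sources. The deposited counts were analysed in R 4.3.3 with edgeR 4.0.16 (filterByExpr, TMM, quasi-likelihood test, Benjamini-Hochberg adjusted p at or under 0.05). The filter kept 13716 genes, which held 99.964% of counts. The additive model (line and PM2.5) left 5 residual degrees of freedom and the 4-group model, which gave the effect in each line and their difference, left 4. Standard errors were computed from the log2 fold change and the test's F statistic. The deposited RPKM entered only as an alternative, by limma 3.58.1 on log2(RPKM + 1), and DESeq2 1.42.0 was another. The scripts were tested on simulated data. The members and gene lists were chosen with earlier results of these data known.

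Named genes were the 12 largest rises and 12 largest falls by the smaller line effect, with at least 5 CPM in the higher group of each line and the exposed libraries of each line apart from the untreated ones (188 rises and 143 falls were eligible, predicted models and pseudogenes being passed over). To these were added up to 4 members of each of 25 lists with the smallest additive adjusted p, up to 6 genes with opposite calls, and a set always named (Hmox1, Tfrc, Ftl1, Fth1, Slc7a11, Gclm, Nqo1, Cyp1a1, Cyp1b1, Tiparp, Mt1, Mt2, Sqstm1, Nfkbia, Cxcl1, Ptgs2 and Bmp6). Genes and 2 lists chosen after their values were seen are marked as such. Promoters are from RefSeq (GRCm38.p6), and iron-responsive-element shapes from GENCODE M21 transcripts (GRCm38). Alternatives were other scalings, filters, tests and models, a replicate block, and leaving out each library. A member of the lists is not reported here.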

Additional observations from a re-analysis of the deposited data

Results flagged for a closer look

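Of the named genes, 52 had a PM2.5 effect that differed between the lines by edgeR's quasi-likelihood test of the difference, with an adjusted p at or under 0.05. Values are the log2 fold change in EpH4-AS minus that in EpH4, so a positive value is a rise that was larger, or a fall that was smaller, in EpH4-AS. Among the 25 of them called in the same direction in both lines, the rises that were larger in EpH4-AS had differences of Cxcl1 2.01, Ddit4 0.42, Eda2r 0.66, Fas 0.55, Fosl1 0.41, Ftl1 0.37, Gstp1 0.34, Irf1 1.05, Nfkb2 0.41, Nfkbia 0.83, Plk2 0.33, Slc25a37 0.30, Sod2 1.08, Tkt 0.28, Tnfaip3 0.66 and Zc3h12a 1.38. Rises that were larger in EpH4 had differences of Cat -0.31, Gsta3 -1.34, Pgd -0.40, Slc30a1 -0.47 and Taldo1 -0.59. The falls had differences of Egln1 0.32, Fn1 -0.32, Pparg 1.52 and Tfrc -0.85. The 7 genes called in opposite directions had differences of Arl4c -0.85, Cdk2ap2 1.06, Lox -2.05, Met -0.77, Ppp1r15a 1.34, Sgk1 -1.16 and Tnip1 0.70. The other 20 genes, not called in both lines, had differences of Ankrd37 0.42, Bmp6 2.22, Cebpb 0.34, Ctsl 0.36, Dnajb9 1.01, Ereg 0.56, Junb 0.42, Loxl4 0.30, Mt2 0.69, Rpl15 0.55, Rplp0 0.39, Rps27 0.74, Slc7a5 0.67 and Sqstm1 0.96 where the value was positive, and of Birc5 -1.06, Col3a1 -2.62, Col6a3 -0.87, Mki67 -1.14, Ndc80 -1.02 and Parp14 -0.46 where it was negative. Groups of 2 libraries allow no test for a single library far from the others.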

How the results depend on the processing

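The additive term, the common PM2.5 effect, called 1283 genes (742 higher, 541 lower), and 223 rises, 155 falls and 217 opposite calls were made in both lines. DESeq2's size factors, library totals, a stricter filter, leaving out mitochondrially encoded genes and fitting each line alone kept each of these counts that could be computed within 1.5 times. The genes behind the counts were not always the same. With each line fitted alone, 165 of the 223 shared rises, 103 of the 155 falls and 142 of the 217 opposite calls were kept. With no filter, opposite calls were 330. TREAT against 1.5-fold left 36 additive calls (30 higher, 6 lower), 4 shared rises, 1 shared fall and 0 opposite calls. DESeq2's Wald test gave 135 shared rises and 96 shared falls. Limma on log2(RPKM + 1) gave 618 additive calls (258 higher, 360 lower) and 139 shared rises beside 191 shared falls, and library totals gave 190 and 203, so that falls then outnumbered rises. The mean of the line contrasts, from the 4-group model, called 2734 (common PM2.5 effect, higher, 1512, and common PM2.5 effect, lower, 1222). That model keeps the difference between the lines out of its spread. The common dispersion, edgeR's measure of spread, was 0.002185 in it and 0.005693 in the additive model. Adjusting the larger p of the lines over all genes gave 90 rises, 36 falls and 61 opposite calls. The causes were not tested.

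The replicate numbers did not pair the samples (correlations of deviations from -0.10 to 0.06), and for the common PM2.5 effect a replicate block gave 600 additive calls (379 higher, 221 lower). A pairing with EpH4 numbers crossed, added after seeing the data, gave 863 (516 higher, 347 lower).

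Leaving out 1 library gave 468 to 1022 additive calls (322 to 644 higher, 146 to 378 lower), 81 to 308 shared rises, 19 to 206 shared falls and 38 to 346 opposite calls. Of 81 named genes shared by the lines, 17 to 31 lost a call without an EpH4-AS library, and 1 to 7 without an EpH4 library. No called value changed sign. EpH4-AS libraries were the shallower ones.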
